A study of Mus musculus with 12 samples.

Results

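The adenylyl cyclase and protein kinase A (PKA) arm that restrains hedgehog signaling was followed in mouse medulloblastoma through 10 genes, of the 24091 genes in the expression table. They were taken from the table by name, with earlier results of these data known. The 10 genes are the receptor gene Gpr161, the stimulatory G protein gene Gnas, the adenylyl cyclase genes Adcy1, Adcy2, Adcy3, Adcy5, Adcy8 and Adcy9, and the PKA subunit genes Prkaca and Prkar1a. All 10 passed the filter on low values in each comparison.

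Bulk RNA of 12 mouse samples was sequenced, 3 from each of 4 groups. Medulloblastomas and the adjacent cerebellum came from the same mice, GB344, GB359 and GB370, of genotype Brca2-mut;Trp53-mut. Control cerebella came from Brca2-mut;Trp53-WT mice GB361, GB508 and GB512 and from Brca2-WT;Trp53-mut mice GB517, GB519 and GB520. The study asked which DNA lesions call for BRCA2 to keep the developing cerebellum free of tumors. Brca2-mut is the Brca2Δex3-4 allele, a floxed allele cut in the developing nervous system by Cre under the human GFAP promoter, so cells that never expressed Cre keep the full allele. Trp53-mut is a germline knockout present in every cell. The Trp53 knockout is thus shared by the tumors, the adjacent tissue and the Brca2-WT;Trp53-mut controls, while the Brca2 deletion is shared by the tumors, the adjacent tissue and the Brca2-mut;Trp53-WT controls. No group was wild type for both genes. Controls were P90 mice, and tumor-bearing mice were taken when a tumor formed or at a humane endpoint, with no age in the labels. The study describes its control cerebella as age-matched to the tumors.

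Cyclic AMP is made by adenylyl cyclases, which the G protein Gs stimulates and Gi inhibits, and it activates PKA by releasing the catalytic subunits from the regulatory ones. In the hedgehog pathway PKA phosphorylates the GLI factors, which leads to their processing into repressors, and the ciliary receptor Gpr161 couples to Gs and raises cyclic AMP while the pathway is off. Granule cell progenitors of the cerebellum divide in response to Sonic hedgehog, and loss of Gnas or of Gpr161 in neural progenitors of the mouse is known to give medulloblastoma of the hedgehog subgroup.

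The 250 bases upstream of a start site are shown for Adcy1 and Adcy9, 2 cyclase genes that fell in tumors, and for Gpr161, the gene that rose. They come from RefSeq promoters on GRCm38.p6, 5′ to 3′ on the gene's strand, and 9 of the 10 genes had an entry. The Adcy1 window is chr11:7063183-7063432 on the plus strand, the Adcy9 window is chr16:4420499-4420748 on the minus strand, and the Gpr161 window is chr1:165302373-165302622 on the plus strand. None of the 3 overlapped an exon of its gene in GENCODE. The Adcy9 and Gpr161 windows lie inside the span of the gene, at internal start sites, and Gpr161 had another window that is not shown. The bases after the Adcy1 start were not found in a GENCODE transcript of Adcy1. Capitals mark an E-box, CACGTG, starting 169 bases before the start of Adcy1. They also mark a half-site of the cyclic AMP response element, TGACG, starting 24 bases before this start site of Adcy9.
Adcy1: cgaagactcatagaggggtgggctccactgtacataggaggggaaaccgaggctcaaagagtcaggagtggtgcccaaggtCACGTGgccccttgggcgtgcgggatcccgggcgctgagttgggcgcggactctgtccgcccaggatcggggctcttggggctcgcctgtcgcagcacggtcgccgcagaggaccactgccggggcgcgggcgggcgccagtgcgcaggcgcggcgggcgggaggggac
Adcy9: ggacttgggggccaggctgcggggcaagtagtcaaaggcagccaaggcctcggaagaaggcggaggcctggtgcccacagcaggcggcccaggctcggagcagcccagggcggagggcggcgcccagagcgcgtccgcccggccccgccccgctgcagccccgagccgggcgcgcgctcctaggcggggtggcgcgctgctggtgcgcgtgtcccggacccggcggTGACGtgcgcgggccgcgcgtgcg
Gpr161: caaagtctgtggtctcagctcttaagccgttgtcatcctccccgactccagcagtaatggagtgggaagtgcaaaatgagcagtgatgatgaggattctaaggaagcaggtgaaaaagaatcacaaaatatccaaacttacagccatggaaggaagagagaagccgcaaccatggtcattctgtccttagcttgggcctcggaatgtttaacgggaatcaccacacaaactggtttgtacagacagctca
Over 32851 such promoter windows of all genes, read on both strands, 17.8% held the half-site TGACG or CGTCA, 6.02% the E-box, 1.55% the full response element TGACGTCA, which contains the half-site on each strand, and 0.225% the GLI site TGGGTGGTC or GACCACCCA. Among the 20 windows of the 9 genes, 8 held the half-site (in Gnas, Prkaca, Prkar1a and Adcy9), 3 the E-box (in Prkaca, Adcy1 and Prkar1a), 1 the full element (in Prkar1a), and 0 the GLI site. The Adcy2 window, of another cyclase gene that fell, held none of these motifs and is not shown. Several windows of 1 gene overlap, so these counts are not independent, and a match describes letters only.

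Expression is given in TPM, a transcript abundance scaled for transcript length and library total, so levels can be set beside each other between genes. TPM holds no read counts, and the depth of each library is therefore unknown. Brca2 was at 8.22 to 14.6 TPM in tumors, 4.52 to 6.98 in adjacent cerebella and 3.24 to 4.40 in the 6 controls. Trp53 was at 124 to 130.5 TPM in tumors, 66.1 to 85.0 in adjacent cerebella, 33.1 to 37.2 in Brca2-mut;Trp53-WT controls and 47.1 to 49.4 in Brca2-WT;Trp53-mut controls. Since transcripts without the deleted exons count toward these values, they do not check the genotype labels. The labelled tissues were checked against marker lists. Controls held granule neuron markers at a summed 3174 to 4290 TPM and Purkinje cell markers at 6014 to 9493 TPM, and tumors held dividing cell markers at 685 to 707 TPM against 4.46 to 36.7 TPM in controls.

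Tumors were first compared with the 6 control cerebella. Of the 10 genes, 5 were called lower and 1 higher, where a call needed both an adjusted p under 0.01 in limma and a fold change of 1 or more in size on the log2 scale. Over all 16241 genes tested, 21.5% were called lower and 14.4% higher. With an adjusted p under 0.05 and no size minimum, 9 of the 10 were lower and 1 higher, where 39.5% and 31.8% of all genes were. Adcy1, Adcy2, Adcy8, Adcy9 and Prkar1a fell, and Gpr161 rose. All 10 genes separated the 3 tumors from the 6 controls without overlap, 9 below and 1 above, in a comparison where 64% of all genes did so. The median log2 fold change of the 10 genes was −0.99, against −0.11 for all genes tested. In bulk tissue, fewer cells of a type and less RNA per cell cannot be told apart.

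**Figure D1:**
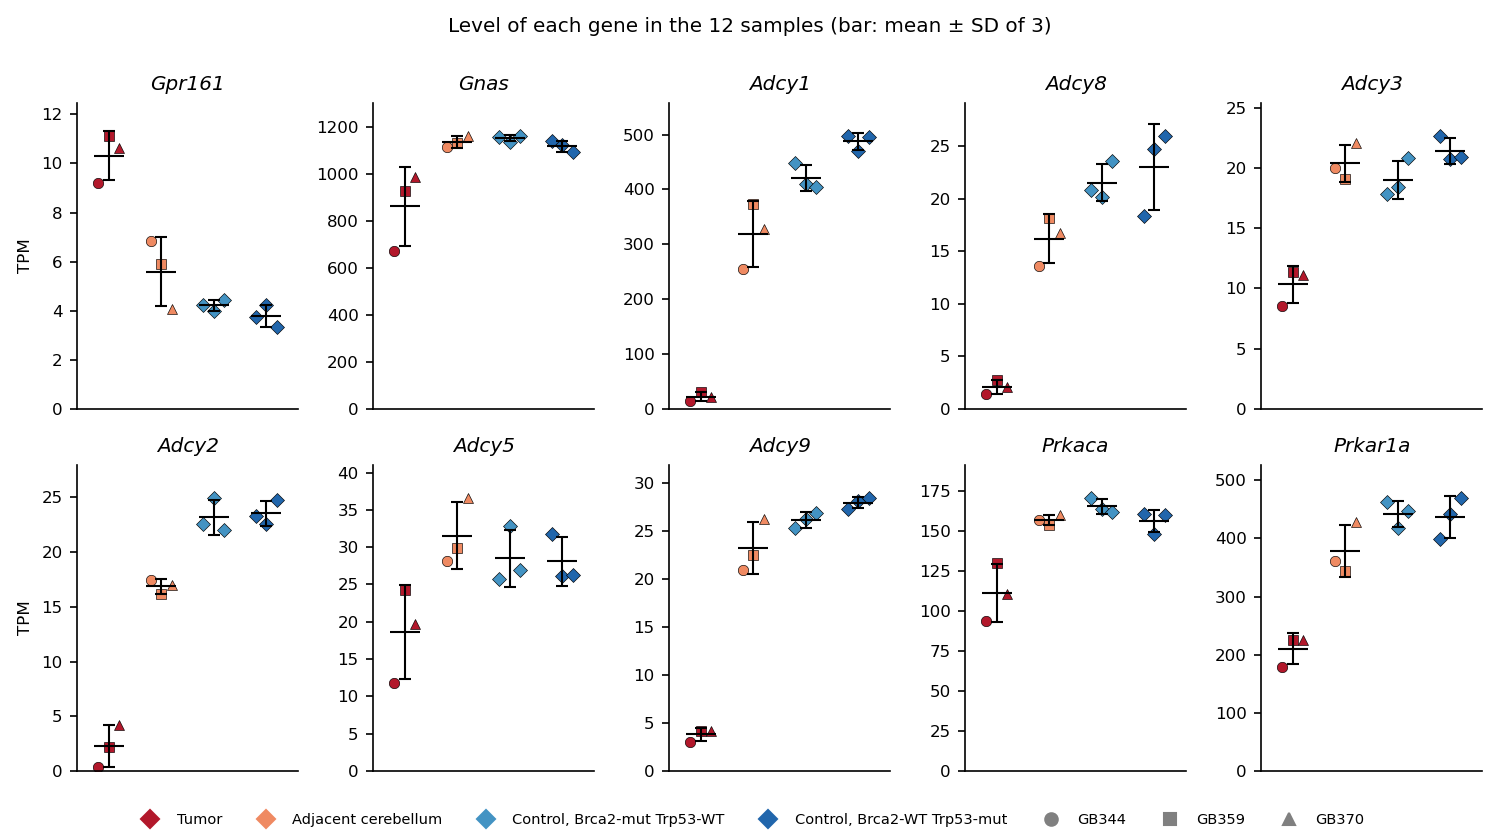
TPM of the 10 genes in each of the 12 samples, with 1 panel per gene and each vertical axis starting at 0. Points are mice (a circle, a square and a triangle mark GB344, GB359 and GB370, whose tumor and adjacent tissue were both sequenced), and black bars are the mean ± SD of the 3 samples of a group. Gpr161 is highest in the tumors, at 9.21 to 11.1 TPM, and the other 9 genes are lowest there.

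Gpr161 (Entrez Gene 240888, chr1:165281184-165326747) encodes the ciliary receptor that feeds into Gs. It was at 9.21, 11.1 and 10.6 TPM in the tumors of GB344, GB359 and GB370, and the controls ran from 3.32 to 4.45 TPM with a median of 4.10. Adjacent cerebella had 6.83, 5.89 and 4.07 TPM. Every tumor was above every other sample, and adjacent GB370 lay within the range of the controls while the other 2 adjacent samples lay above it. Against controls Gpr161 rose by 1.18 on the log2 scale of TPM + 1 (standard error, SE, 0.12, adjusted p = 7.39e-06 by limma), and the means were 10.3 ± 0.993 TPM (SD, n = 3) and 3.99 ± 0.404 TPM (SD, n = 6). By level it was the lowest of the 10 genes in controls and adjacent tissue. In tumors it stood seventh, with a mean close to that of Adcy3 at 10.3 ± 1.55 TPM (SD, n = 3), and those neighbours did not differ beyond their spread.

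Gnas (Entrez Gene 14683, chr2:174284320-174346744) encodes the alpha subunit of Gs and had the highest TPM of the 10 genes in every group. Its value sums all transcripts of an imprinted locus with several promoters, so the Gs transcript is not resolved. Tumors GB344, GB359 and GB370 had 671, 929 and 988 TPM, and controls ran from 1092 to 1163 TPM with a median of 1138. Adjacent cerebella had 1114, 1131 and 1163 TPM and lay within the controls. The tumors were below the controls, with GB344 furthest away. The log2 fold change against controls was −0.42 (SE 0.11, adjusted p = 0.00773 by limma), short of the size required for a call.

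Adcy1 (Entrez Gene 432530, chr11:7063433-7178506) encodes a calcium- and calmodulin-stimulated cyclase of neurons and was the cyclase gene with the highest level in controls. It was at 13.7, 30.8 and 22.5 TPM in the tumors of GB344, GB359 and GB370. Controls ran from 405 to 498 TPM with a median of 458, and adjacent cerebella had 255, 373 and 328 TPM. The 3 tissues did not overlap, with tumors lowest and controls highest. The tumor mean of 22.4 ± 8.55 TPM (SD, n = 3) was 4.93% of the control mean of 454 ± 40.8 TPM (SD, n = 6). Adcy1 fell by 4.35 on the log2 scale (SE 0.20, adjusted p = 3.26e-08 by limma). Of all 16241 genes tested, 0.634% had a lower fold change.

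Adcy8 (Entrez Gene 11514, chr15:64699035-64922296) encodes the other cyclase of the list that is stimulated by calcium and calmodulin in neurons. Tumors had 1.43, 2.77 and 2.08 TPM, controls ran from 18.4 to 26.0 TPM with a median of 22.2, and adjacent cerebella had 13.7, 18.2 and 16.7 TPM. Again the 3 tissues did not overlap. Against controls Adcy8 fell by 2.93 on the log2 scale (SE 0.16, adjusted p = 9.27e-08 by limma), to 9.38% of the control mean. Adcy3 (Entrez Gene 104111, chr12:4133116-4213525) encodes the cyclase of neuronal primary cilia. It had 8.56, 11.4 and 11.1 TPM in tumors, and controls ran from 17.8 to 22.7 TPM with a median of 20.7. Adjacent cerebella, at 19.98, 19.1 and 22.1 TPM, overlapped the controls. Its log2 fold change in tumors against controls was −0.91 (SE 0.12, adjusted p = 5.05e-05 by limma), under the size required for a call.

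Adcy2 (Entrez Gene 210044, chr13:68620043-68999600) encodes a cyclase stimulated by G protein beta-gamma subunits. It was at 0.327, 2.23 and 4.17 TPM in the tumors of GB344, GB359 and GB370, the widest spread among tumors relative to its mean of 2.24 ± 1.92 TPM (SD, n = 3) for the 10 genes. Controls ran from 22.0 to 25.0 TPM with a median of 22.9, and adjacent cerebella had 17.5, 16.2 and 17.0 TPM. Tumors, adjacent tissue and controls did not overlap. Adcy2 fell by 3.12 on the log2 scale against controls (SE 0.33, adjusted p = 1.03e-05 by limma). Because the tumors are near 0, its size depends on the added value of 1, and it was −3.99 with 0.01 added instead. Adcy2 lies on the same chromosome as the hedgehog receptor gene Ptch1. The study reports that each mouse tumor it sequenced for DNA had lost a copy of the chromosome arm holding the latter gene. Whether Adcy2 was reduced in copy number in the tumors measured here, and what part that had in its fall, was not tested.

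Adcy9 (Entrez Gene 11515, chr16:4284886-4437236) encodes a broadly expressed cyclase that responds poorly to forskolin. Tumors had 3.06, 4.22 and 4.14 TPM, controls ran from 25.3 to 28.5 TPM with a median of 27.1, and adjacent cerebella had 20.9, 22.5 and 26.3 TPM. The tumors stood far below all other samples, and adjacent GB370 reached the controls. Adcy9 fell by 2.55 on the log2 scale (SE 0.11, adjusted p = 2.36e-08 by limma), to 14.1% of the control mean. Adcy5 (Entrez Gene 224129, chr16:35154494-35305743) encodes a cyclase that calcium inhibits. It had 11.8, 24.2 and 19.8 TPM in tumors, and controls ran from 25.7 to 32.9 TPM with a median of 26.6. Tumor GB359 was close to the lowest control. The log2 fold change was −0.63 (SE 0.19, adjusted p = 0.0124 by limma), which missed both criteria.

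Prkaca (Entrez Gene 18747, chr8:83972978-83996444) encodes the alpha catalytic subunit of PKA. It was at 93.7, 130.0 and 111 TPM in tumors, and controls ran from 148 to 171 TPM with a median of 161. Adjacent cerebella had 157, 154 and 160.2 TPM, within the controls. The log2 fold change against controls was −0.54 (SE 0.10, adjusted p = 0.000559 by limma), under the size required. Prkar1a (Entrez Gene 19084, chr11:109649023-109669663) encodes the type I alpha regulatory subunit, which holds the catalytic subunits inactive. Tumors had 179, 225 and 226 TPM, controls ran from 399 to 470.2 TPM with a median of 445, and adjacent cerebella had 362, 343 and 429 TPM. Adjacent GB370 lay among the controls and the other 2 adjacent samples lay below them. Prkar1a fell by 1.07 (SE 0.09, adjusted p = 2.33e-06 by limma), to 47.8% of the control mean. This call sits at the threshold, and with median-of-ratios scaling, with quantile normalization or without tumor GB344 the log2 fold change was −0.95, −0.92 and −0.96 and the call was lost.

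Scaling shifted the middle of the whole distribution, whose median log2 fold change of −0.11 was −0.01 with median-of-ratios scaling and 0.06 with quantile normalization. Relative to that median the called genes were at −4.24 (Adcy1), −3.01 (Adcy2), −2.82 (Adcy8), −2.45 (Adcy9), −0.96 (Prkar1a) and 1.29 (Gpr161). Each of the 10 genes kept its direction in tumors against controls in every alternative tried. Among the tumors, GB344 had the lowest TPM of all 10 genes, Gpr161 included. The share of all genes that were lowest in GB344 is not given here. Tumor GB344 also had the lowest summed granule neuron markers, 279.9 TPM against 744 in GB359 and 538 in GB370. Its Purkinje cell, cerebellar interneuron, oligodendrocyte, microglia and granule cell progenitor sums were lowest too. Its dividing cell sum was the highest, and its astrocyte and Bergmann glia sum was not the lowest. The part of cell types in this order of the tumors was not tested.

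**Figure D2:**
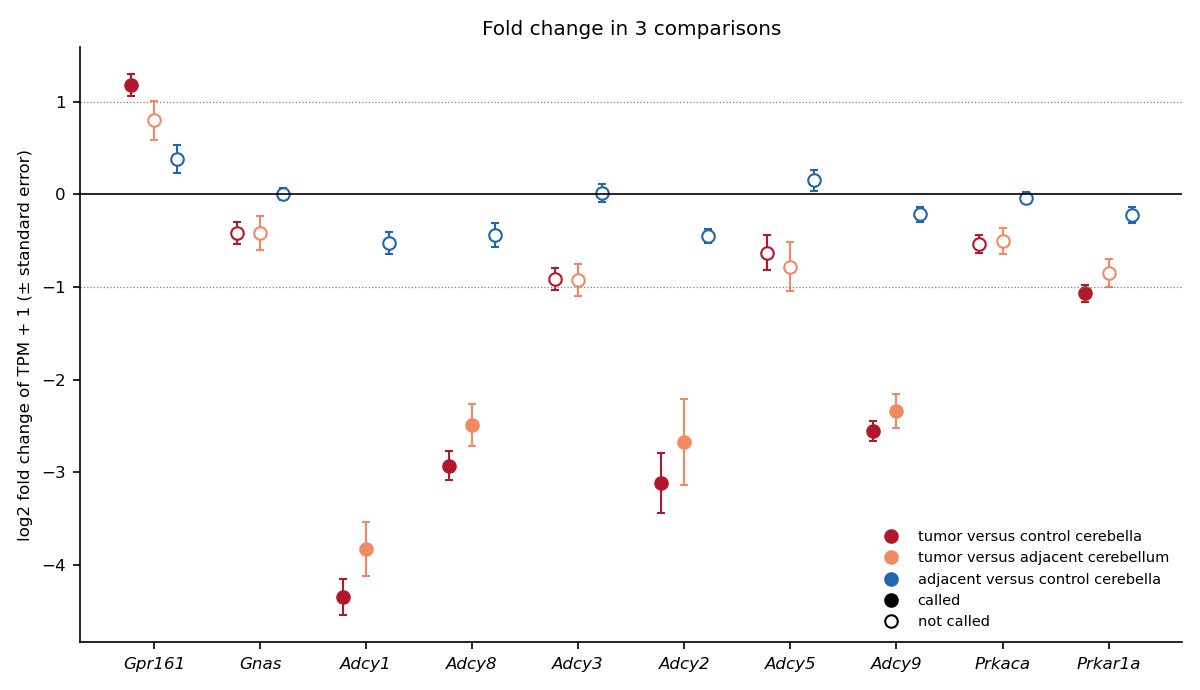
Log2 fold change of TPM + 1 with its standard error for the 10 genes in 3 comparisons that share samples. Filled points passed both criteria, open points did not, and dotted lines mark a log2 fold change of 1 in either direction. Adcy1, Adcy2, Adcy8 and Adcy9 are filled in both tumor comparisons, Gpr161 is the 1 filled point above 0, and no point is filled for adjacent versus control cerebella.

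The make-up of the cyclase family was taken as shares of TPM, as a description with no test. The 10 Adcy genes of the table, Adcy1 to Adcy10, summed to 96.9 ± 18.9 TPM (SD, n = 3) in tumors, 465 ± 61.9 TPM (SD, n = 3) in adjacent cerebella and 607 ± 47.3 TPM (SD, n = 6) in controls. Adcy1 made up 17.9% to 27.0% of this sum in tumors, 64.3% to 72.4% in adjacent cerebella and 72.8% to 76.5% in controls. Adcy6, which is not among the 10 genes chosen and encodes a calcium-inhibited cyclase close to Adcy5, made up 25.8% to 31.9% in tumors and 3.25% to 4.31% in controls. Its TPM was 24.5, 31.6 and 25.8 in tumors, 27.5 to 31.2 in adjacent cerebella and 18.9 to 28.4 in controls. Adcy6 had the highest mean TPM of the cyclase genes in tumors, 27.3 ± 3.80 (SD, n = 3), against 22.4 ± 8.55 (SD, n = 3) for Adcy1. The gap was within the spread between tumors. Adcy6 was above Adcy1 in each tumor, though in GB359 only at 31.6 against 30.8 TPM. Adcy7 was at 10.9, 4.89 and 7.09 TPM in tumors and 2.27 to 4.13 in controls, a log2 fold change of 0.91 (SE 0.23, adjusted p = 0.00466 by limma), short of a call. Adcy4 was at 1.41 to 2.99 TPM in tumors and 2.01 to 3.88 in controls. Adcy10, the soluble cyclase, was at 0.328 to 0.478 TPM in tumors and did not pass the filter in this comparison.

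The other PKA subunits moved in both directions. Prkar1b, the type I beta regulatory subunit of neurons, was at 21.2, 35.4 and 37.2 TPM in tumors and 304 to 341 TPM in controls, and fell by 3.38 on the log2 scale (SE 0.15, adjusted p = 3.15e-08 by limma). Prkacb, the beta catalytic subunit, fell by 1.18 (SE 0.14, adjusted p = 3.08e-05 by limma), from 155 ± 12.8 TPM (SD, n = 6) to 68.9 ± 17.0 TPM (SD, n = 3), and by 0.97 without tumor GB344, which ended its call. Prkar2b, the type II beta regulatory subunit, rose by 1.07 (SE 0.12, adjusted p = 1.48e-05 by limma), from 11.8 ± 1.21 TPM (SD, n = 6) to 26.0 ± 3.38 TPM (SD, n = 3). With the Brca2-mut;Trp53-WT controls alone the rise was 0.99, under the call size. Prkar2a was at 37.5 to 41.4 TPM in tumors and 31.9 to 38.1 in controls. Prkar1a made up 66.3% to 70.0% of the summed regulatory subunit TPM in tumors and 51.1% to 57.1% in controls, while Prkar1b made up 7.83% to 11.5% and 36.9% to 42.9%. The summed regulatory TPM was 306 ± 31.0 (SD, n = 3) in tumors and 814 ± 24.7 (SD, n = 6) in controls. The summed catalytic TPM of Prkaca and Prkacb was 180.5 ± 34.8 (SD, n = 3) in tumors and 316 ± 12.4 (SD, n = 6) in controls.

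**Figure D3:**
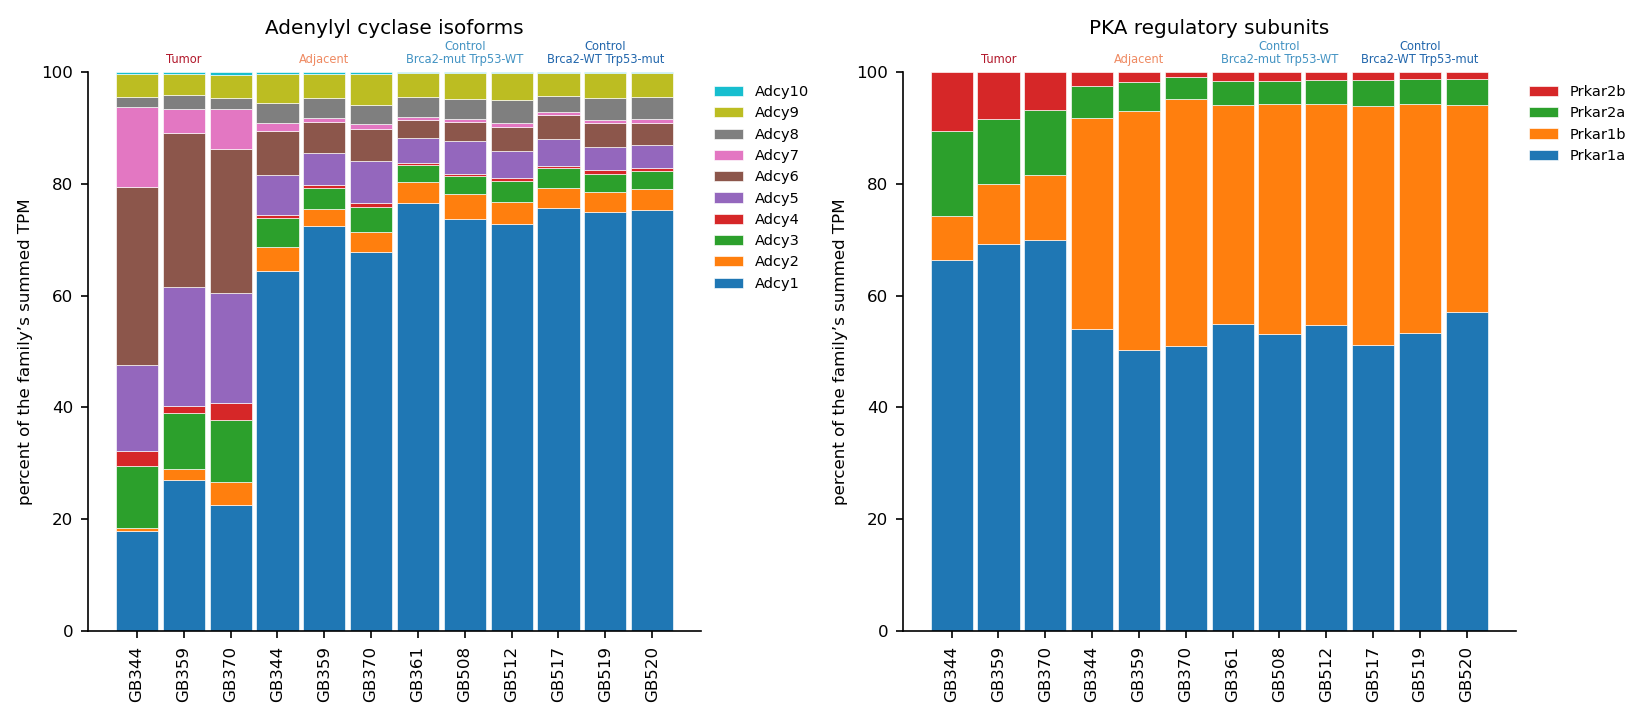
Share of each gene in the summed TPM of its family, per sample, for the 10 adenylyl cyclases (left) and the 4 PKA regulatory subunits (right). Bars add to 100% and carry no error. In tumors the Adcy1 segment is 17.9% to 27.0% against 72.8% to 76.5% in controls, and the Prkar1b segment is 7.83% to 11.5% against 36.9% to 42.9%.

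The rest of the pathway was followed through lists of 144 further genes, of which 128 were tested in tumors against controls, with 49 called lower and 16 higher, where 21.5% of all genes were called lower and 14.4% higher. The list counts that follow are to be read against the same shares, and several lie near them. The median log2 fold change of the 128 genes was −0.28. Upstream of the cyclases, 4 of 6 other alpha subunits of the Gs and Gi families fell and 1 rose. Gnal, the Gs-like subunit, fell by 3.64, the inhibitory subunit genes Gnai1 and Gnao1 fell by 2.64 and 1.75, and Gnai3 rose by 1.54. Of 16 Gi-coupled receptor genes tested, 14 fell and 1 rose, with a list median of −2.54. The glutamate receptor gene Grm4 fell by 4.49, the GABA receptor gene Gabbr2 by 4.03 and the serotonin receptor gene Htr1b by 4.0. Cxcr4, the chemokine receptor, rose by 4.71. Of 15 Gs-coupled receptors and ligands, 5 fell, Crhr1, Vipr2 and Gpr12 most, by 4.03, 3.04 and 2.90.

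Downstream and beside PKA, the phosphodiesterases that degrade cyclic AMP showed 8 of 15 genes lower and 1 higher. Pde10a fell by 2.93, Pde4d by 2.58 and Pde4a by 2.08, and Pde7a rose by 1.34. Of the 3 PKA inhibitor genes, Pkib fell by 2.58. Among 15 anchoring proteins, which place PKA in the cell, Akap2, Akap7 and Akap11 fell by 1.95, 1.75 and 1.05 and Ezr rose by 2.66, and Akap11 missed the call size under both scaling alternatives, at −0.94 and −0.92, and without tumor GB370, at −0.93. Of 13 other cyclic AMP effectors and CREB factors, 6 fell. Among them the pacemaker channel gene Hcn2 fell by 3.62 and the exchange factor gene Rapgef4 by 3.27.

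On the hedgehog side, 7 of 8 targets and receptors rose, with a list median of 3.27, and Ptch1 was the 1 exception at 0.13. The study reports that every mouse tumor it sequenced for DNA had lost a copy of this gene and carried an inactivating mutation in the other copy. The Ptch1 value may therefore not be comparable with those of the other targets. The part of such changes in it was not tested. Mycn rose by 6.50 and Sfrp1 by 5.93. Among 17 genes of GLI phosphorylation and processing 4 rose and 2 fell. Gli2, the main activator, rose by 3.62, the GLI inhibitor gene Sufu by 1.46 and the ciliary kinesin gene Kif7 by 1.33. The ubiquitin ligase adaptor genes Spop and Btrc fell by 1.61 and 1.37, and Btrc was at −0.80 without tumor GB344. Of 13 Gpr161 trafficking and signaling partners 4 fell. Arrb1, a beta-arrestin gene, fell by 2.92, Inpp5e, a ciliary phosphatase gene, by 1.47, and Grk2, a receptor kinase gene, by 1.40. The other 9 partners were not called, and the list median was −0.10, against −0.11 for all genes tested. Arrb2, Ift43, Ift140, Ift122 and Tulp3 had log2 fold changes of 0.83, 0.87, 0.83, 0.74 and 0.44. Bbs4 went the other way, at 12.4 to 23.9 TPM in tumors and 35.6 to 37.8 in controls. Wdr19, Ttc21b and Wdr35 overlapped the controls. All 9 were named after their values were seen.

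**Figure D4:**
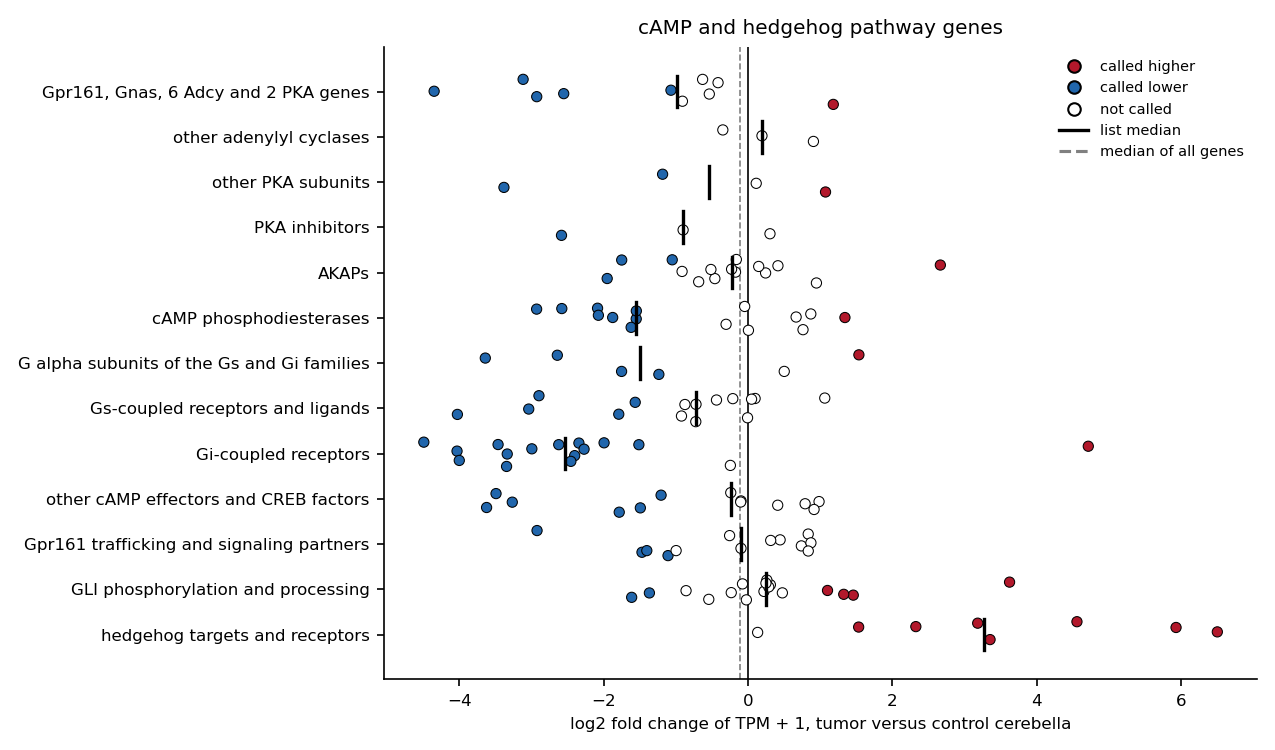
Log2 fold change of TPM + 1 in tumors against the 6 controls for every tested gene of 13 lists. Red points were called higher, blue points lower and white points neither, the short black line is the list median and the dashed line the median of all genes at −0.11. The hedgehog targets lie right, with 7 of 8 called higher, and the Gi-coupled receptors lie left, with 14 of 16 called lower.

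Cell type markers moved in the same comparison. Summed granule neuron markers were 280 to 744 TPM in tumors and 3174 to 4290 TPM in controls, with 8 of 9 markers called lower and a tumor mean at 13.7% of the control mean. Nrn1, the marker not called and named here after its values were seen, ran from 130.1 to 257 TPM in the tumors and took a larger part of the sum there than in controls, where it ran from 116 to 204 TPM. Purkinje cell markers were at 4.05% of the control mean (8 of 8 called lower), cerebellar interneuron markers at 5.99% (7 of 7), oligodendrocyte markers at 4.68% (7 of 7), and astrocyte and Bergmann glia markers at 22.1% (7 of 8). None of these neuron and glia markers was at 0 in a tumor. Dividing cell markers rose in 7 of 7 and granule cell progenitor markers in 3 of 7, and microglia markers in 3 of 7. The part of these cell types in the levels of the 10 genes was not tested.

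Tumors were next compared with the adjacent cerebellum of the same mice. Adcy1, Adcy2, Adcy8 and Adcy9 were called lower, 4 of the 10 genes, where 18% of 15845 genes were called lower. None was called higher by limma, where 4.76% were, although Gpr161 had an unadjusted p of 0.00775. With an adjusted p under 0.05 and no size minimum, 8 were lower and 1 higher, where 32.2% and 18.1% of all genes were. All 10 genes separated tumors from adjacent tissue without overlap, as 62.6% of all genes did. In this comparison 20.9% of all calls were higher, and 37.4% and 43.6% with median-of-ratios scaling and quantile normalization, and the median of all genes moved from −0.14 to 0.05 and 0.14. Relative to the −0.14, Adcy1 was at −3.69 and Gpr161 at 0.94.

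Within each mouse, tumor Adcy1 was 5.40% of the adjacent level in GB344, 8.28% in GB359 and 6.86% in GB370. Adcy1 fell by 3.83 on the log2 scale (SE 0.29, adjusted p = 0.000215 by limma). Adcy8 was 10.5%, 15.2% and 12.4% of adjacent tissue in the same order, and fell by 2.49 (SE 0.23, adjusted p = 0.000327 by limma). Adcy9 was 14.6%, 18.8% and 15.8%, and fell by 2.34 (SE 0.19, adjusted p = 0.000242 by limma). Each of these 3 ratios was lowest in GB344. Adcy2 differed more, at 1.87%, 13.8% and 24.5%, and fell by 2.67 (SE 0.46, adjusted p = 0.00382 by limma). Its call was lost without adjacent GB344, GB359 or GB370 or tumor GB359, with adjusted p between 0.0124 and 0.0149 in limma.

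Gpr161 was 135%, 189% and 261% of the adjacent level in GB344, GB359 and GB370, higher in 3 of 3 mice. Its log2 fold change was 0.80 (SE 0.22, adjusted p = 0.0200 by limma), not a call, and it became one with quantile normalization at 1.16 (limma adjusted p = 0.00242). Prkar1a was 49.6%, 65.5% and 52.7% of adjacent tissue (log2 fold change −0.85, SE 0.15, adjusted p = 0.00421 by limma). Adcy3 was 42.8%, 59.5% and 50.2% (−0.92, SE 0.17, adjusted p = 0.00480 by limma). Both met the p criterion and not the size. Adcy5, Prkaca and Gnas had adjusted p of 0.0460, 0.0237 and 0.107 in limma, with log2 fold changes of −0.78, −0.50 and −0.42, and were lower in 3 of 3 mice. Markers differed here too, with summed granule neuron markers at 2636 to 3805 TPM in adjacent cerebella, 8 of 9 called lower in tumors, and their part was not tested.

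Adjacent cerebella were compared with the 6 controls. None of the 10 genes was called in either direction by limma, and the lowest unadjusted p was 0.000139, for Adcy2. With an adjusted p under 0.05 and no size minimum, 3 were lower and 0 higher, where 5.57% and 10.1% of all genes were. Over 16091 genes, 0.0124% were called lower and 0.224% higher, and 94.7% of the calls were higher, or 82.5% and 69.5% with the scaling alternatives. Adcy1, Adcy2 and Adcy8 lay below the controls in 3 of 3 adjacent samples without overlap, which 19.3% of all genes did in either direction. Their log2 fold changes were −0.52 (SE 0.12, adjusted p = 0.0235 by limma), −0.45 (SE 0.08, adjusted p = 0.0118 by limma) and −0.44 (SE 0.13, adjusted p = 0.0460 by limma). Gpr161 had a log2 fold change of 0.38 (SE 0.15, adjusted p = 0.105 by limma).

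The adjacent samples were not alike. Gpr161 was highest in adjacent GB344 and lowest in GB370, and summed dividing cell markers were 294.8, 169 and 20.6 TPM in GB344, GB359 and GB370, against 4.46 to 36.7 TPM in controls. Adcy1 was lowest in adjacent GB344, at 255 TPM, and summed granule neuron markers were 2636, 3805 and 3328 TPM in the same order. Summed granule cell progenitor markers were 1439, 1382 and 1242 TPM in that order, against 852 to 1144 TPM in controls. Of these markers 2 of 7 were called higher than in controls, where 0.224% of all genes were. Hedgehog targets and receptors had a list median of 1.25, with 0 of 8 called. What dividing cells, progenitors or tumor cells within the adjacent tissue contributed to these levels was not tested. This comparison shares the adjacent samples with the one above and the controls with the first, so the values are not independent.

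Between the control genotypes, none of the 10 genes was called by limma, and the lowest unadjusted p was 0.00933, for Adcy1. Over 15575 genes, 0.0449% were called lower and 0.0128% higher in Brca2-mut;Trp53-WT cerebella. At an adjusted p under 0.05 with no size minimum these shares were 0.417% and 0.0385%, and none of the 10 genes passed. Adcy1 was at 447, 409 and 405 TPM in Brca2-mut;Trp53-WT mice and at 498, 469 and 495 TPM in Brca2-WT;Trp53-mut mice (log2 fold change −0.21, SE 0.06, adjusted p = 0.138 by limma). Adcy1, Adcy9 and Prkaca did not overlap between the genotypes, 3 of the 10 genes, where 27% of all genes did not overlap. Choroid plexus markers summed to 3986 to 5211 TPM in Brca2-WT;Trp53-mut controls and to 892, 31.0 and 38.5 TPM in Brca2-mut;Trp53-WT controls GB361, GB508 and GB512, and their part in the level of Adcy1 was not tested. The Adcy1 difference between genotypes is small beside the fall in tumors.

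The genes whose log2 levels ran closest to 3 of the genes were sought over all 12 samples among 16498 genes, as a description. For Adcy1 they were Lrrc4, Kcnk3 and Grb2, each with a Pearson r of 0.999. For Gpr161 they were Fam89b (0.995), Slbp (0.994) and Rhno1 (0.991). For Prkaca they were Gnao1 (0.985), Nkain4 (0.984) and Kif3c (0.984). The points share the same 12 libraries, in which the 3 tumors lie apart from the other samples for Adcy1, Gpr161 and Prkaca. Rhno1 was at 74.1 TPM in tumors, 20.4 in adjacent cerebella and 10.7 in controls, and Kcnk3 at 4.54, 56.0 and 75.7 TPM.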

How the data were processed

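RNA from flash-frozen medulloblastoma and cerebellum was poly(A)-selected and sequenced. The authors ran Salmon 0.8.1 on the mm10 knownGene annotation and took gene sums with tximport. The deposited values are TPM per gene and sample, normalized by the authors to transcript length and to 1 fixed total per library. TPM keeps no depth, so counting error and count models, such as the authors' own test, were out of reach. Groups came from the GEO tissue and genotype labels, with 3 mice in each.

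TPM + 1 was taken to log2. Each comparison kept the genes that reached 1 TPM in 3 or more of its samples, which limma 3.58.1 in R 4.3.3 (lmFit, eBayes with an intensity trend) tested using only the groups compared and no block, with Benjamini-Hochberg adjustment over all genes tested. Calls needed an adjusted p under 0.01 together with a change of 1 or more in size on the log2 scale. The added 1 understates changes of low genes. P-values measure the spread between mice. The 4 comparisons share samples.

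On simulated data with 200 changed genes, the tumor versus control fit recovered 97 of 100 genes changed by 2 on the log2 scale and 99 of 100 changed by 3, and tumor versus adjacent 73 and 91. The changed genes were drawn from those above 3 on the log2 scale of TPM + 1 in the reference group. Gpr161 lay under that level in controls and adjacent cerebella. Recovery of smaller changes, such as those of Gpr161 and Prkar1a, was not tested. Far fewer genes were changed than were called in the data. Tumor and adjacent samples were paired by the animal number in their labels. The correlations of their deviations from the group means were 0.249, 0.176 and 0.152 within animals, and at most 0.018 between animals. Centering on the group mean pushes values between animals down when those within animals are positive, so this contrast is partly built in.

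The 10 genes and all lists were chosen with earlier results of these data known. Named were the 10 genes, the other adenylyl cyclases and PKA subunits, up to 3 largest rises and 3 largest falls among called genes of each other list, and the 3 closest genes in pattern to Adcy1, Gpr161 and Prkaca. Some items that this rule names are not reported here. Ptch1 was named after its value was seen. Forebrain, brainstem, endothelial and choroid plexus marker lists were also computed: forebrain had 2 of 3 tested markers called lower in tumors against controls and 1 higher, brainstem 1 of 2 lower, endothelial 1 of 7 lower and choroid plexus 1 of 7 lower. Gene coordinates and promoters are from RefSeq on GRCm38.p6, the mm10 build. Alternatives were other pseudocounts, filters, scalings and thresholds, no trend, 1 fit for all groups, the mouse as a block, each control genotype alone and each sample left out.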

Additional observations from a re-analysis of the deposited data

How the results depend on the processing

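Against the controls, 5 of the 10 genes were called lower. The count was 9 with an adjusted p under 0.05 and no size minimum, where 39.5% of all genes were lower, and 4 to 5 when samples were left out 1 at a time. Against adjacent tissue, 4 were called lower and 0 higher, and that threshold gave 8 and 1 (32.2% and 18.1% of all genes), quantile normalization gave 1 higher, and leaving out a sample gave 3 to 4 lower. With the mouse as a replicate block (paired fit), 4 were lower and 0 higher, and no call of the 10 genes changed. Adjacent against control cerebella gave 0 lower, and 3 (Adcy1, Adcy2 and Adcy8) at the looser threshold, where 5.57% of all genes were lower. Adcy2 against adjacent tissue was not called with 0.1 or 0.01 added in place of 1, at limma adjusted p of 0.0129 and 0.0162, where the log2 fold change was −3.39 and −3.53. Of the fold changes of the 10 genes under alternatives, 193 kept their side of the threshold against controls, 4 gained a call and 3 lost it (Prkar1a), 148, 6 and 6 did so against adjacent tissue, and 116, 3 and 0 between adjacent and control cerebella, leaving out Gnas, Prkaca, Adcy3 and Adcy5, whose changes there lay near 0. None of these changed direction. Of the other named genes, 743 kept their side, 6 gained and 10 lost a call. Btrc was not called against either control genotype alone, nor Sufu against the Brca2-WT;Trp53-mut controls. The cause was not tested.

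Over all genes, tumor against control calls were 2341 higher and 3489 lower, and 2019 to 5165 and 2979 to 6408 across settings. Tumor against adjacent calls were 755 and 2852, and 189 (without tumor GB370) to 2870 and 2136 to 5110 across settings. Adjacent against control calls were 36 and 2, and 0 (without control GB520) to 1627 and 0 to 897, with 564 higher without adjacent GB370. Control genotypes gave 2 and 7, and 2 to 6 and 0 to 65. In that last comparison 22.2% of calls were higher, and 66.7% with either scaling alternative. Without depth, changes of genes near 0 TPM, such as Adcy2 in tumors, have no known counting error.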
